A study of Mus musculus with 6 samples.

Results

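The mitochondrial carrier family (Slc25) was examined in cultured mouse intestinal adenoma cells with and without an intact gene for the kinase IKKa (Chuk). Members were all protein-coding genes whose GENCODE symbol starts with Slc25a and a number, plus the uncoupling protein genes Ucp1, Ucp2 and Ucp3. The rule found 50 members among 49585 gene identifiers. Libraries came from 3 knock-out (APC min/+; Villin-Cre; IKKa FL/FL) and 3 wild-type (APC min/+; Villin-Cre; IKKa +/+) cultures on the C57BL/6 strain. By these labels all cultures shared the APC min/+ genotype and Cre under the Villin promoter, which is active in intestinal epithelium. The state of the second Apc allele in the cultured cells was not tested. The cultures differed by label only in the Chuk alleles. They were grown in Matrigel in a medium with N2, B27, the ROCK inhibitor Y27632, Noggin, R-spondin, EGF and basic FGF. The sources used here give neither ages nor the number of mice behind the cultures. The p-values weigh the difference between genotypes against the spread among libraries of a genotype. That spread may be only technical variation.

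Carriers of this family move metabolites, nucleotides, cofactors and ions across the mitochondrial inner membrane, which is otherwise closed to them. The adenine nucleotide translocases exchange ADP for ATP, the phosphate carrier brings in the phosphate for ATP synthesis, and other members carry citrate, amino acids, iron, glutathione or coenzymes. In proliferating intestinal cells these steps link respiration to the supply of aspartate, citrate and nucleotides in the cytosol. The carriers are made in the cytosol and reach the inner membrane through the TOM and TIM22 complexes.

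Of the 50 members, 40 had enough counts to be tested. In the knock-out 18 of these fell and 8 rose (adjusted p under 0.05 in the quasi-likelihood test of edgeR), and 14 did not pass. The members called were 65.0% of those tested, against 57.4% of all 13759 genes tested. By direction, 45.0% of tested members fell, against 27.0% of all genes, and 20.0% rose, against 30.4%. The knock-out and wild-type libraries did not overlap for 27 of the 40, against 63.1% of all genes. The median log2 fold change was -0.19 over tested members and 0.00 over all genes tested. These shares describe the members that passed the count filter and were not tested against other genes. Most falls were small. With at least a 1.5-fold difference, 13 of the 40 passed, against 36.8% of all genes. Of the 40, 5 were higher and 8 lower by that much, against 21.1% and 15.7% of all genes. Slc25a48, Slc25a45, Slc25a24 and Slc25a30 rose more than 2-fold, and Slc25a35 and Slc25a29 fell more than 2-fold, a size that 25.1% of all genes passed.

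**Figure D1:**
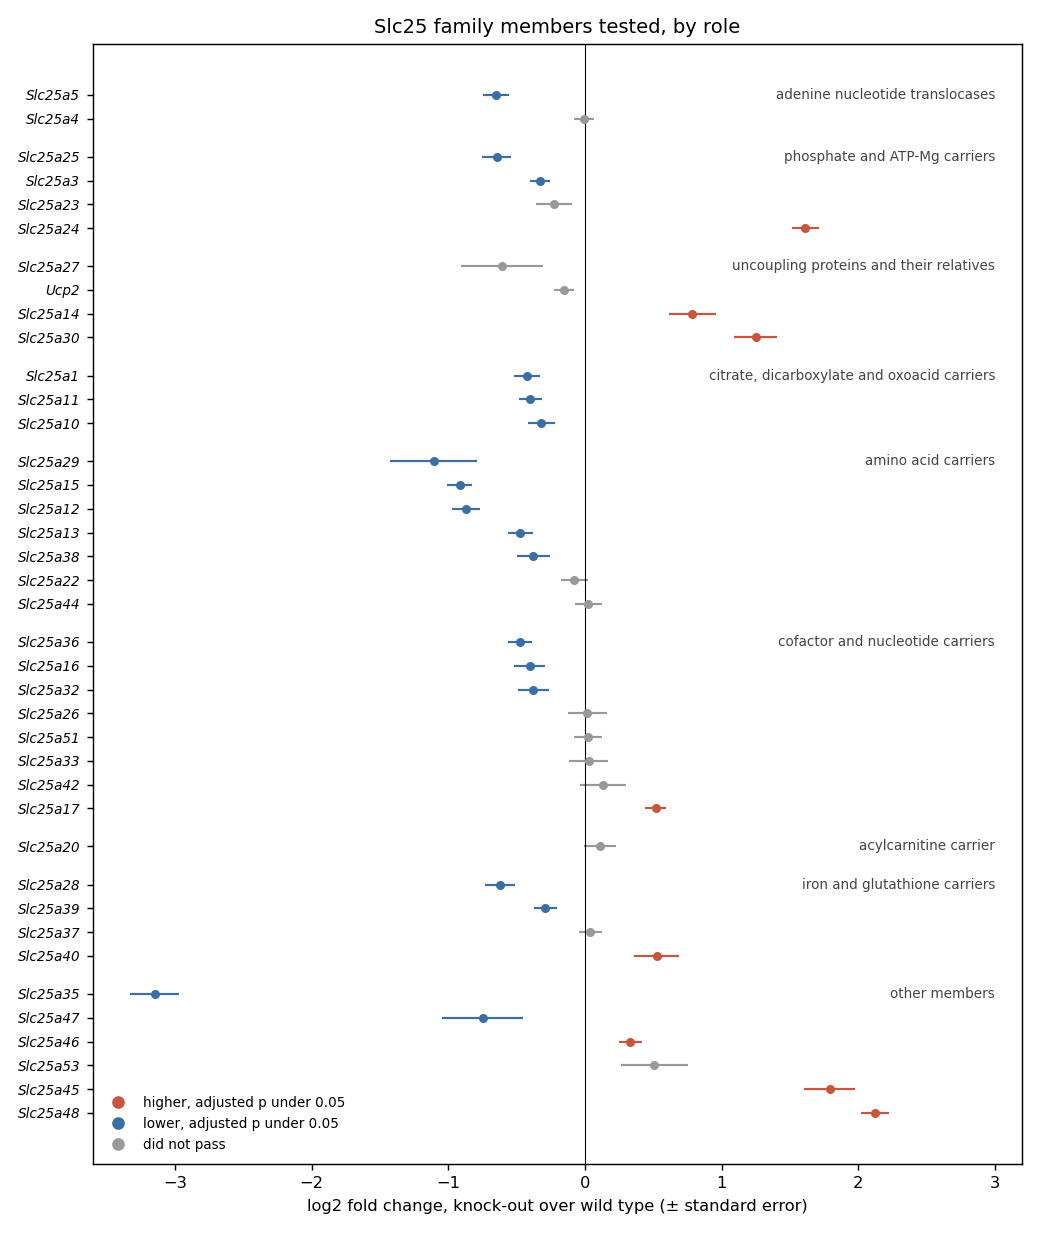
Log2 fold change (horizontal axis, knock-out over wild type) with its standard error for 39 of the 40 members tested, grouped by role. The 18 members that fell lie mostly between -0.3 and -1.0, whereas Slc25a35 lies at -3.15 and the largest rises, Slc25a45 and Slc25a48, at 1.79 and 2.12.

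The promoters of 4 members are shown because they belong to the 2 members that rose over 3-fold to more than 100 CPM (Slc25a48 and Slc25a24) and to the translocase genes, of which 1 fell and the other did not pass (Slc25a5 and Slc25a4). Each run holds 250 bases before and 50 bases after the RefSeq start site on GRCm38.p6, and 39 of the 50 members had such an entry. Capitals mark matches on either strand to any of 6 promoter motifs. The TATA box, bound by the basal machinery, was searched as TATAAN. The box bound by the factor NF-Y was searched as CCAAT. The GC box, known from binding by Sp1, was searched as GGGCGG. The E box, read by Myc and related factors, was searched as CACGTG. The element of the receptor ERR was searched as AAGGTCA, and the palindromic NRF1 consensus was searched as well.
Slc25a48 (chr13:56438105-56438404, plus strand): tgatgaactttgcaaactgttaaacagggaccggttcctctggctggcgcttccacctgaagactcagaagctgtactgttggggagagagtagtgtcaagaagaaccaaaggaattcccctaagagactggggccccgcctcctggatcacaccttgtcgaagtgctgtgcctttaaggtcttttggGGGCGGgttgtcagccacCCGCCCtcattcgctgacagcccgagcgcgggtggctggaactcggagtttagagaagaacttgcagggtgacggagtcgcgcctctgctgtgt
Slc25a24 (chr3:109122899-109123198, plus strand): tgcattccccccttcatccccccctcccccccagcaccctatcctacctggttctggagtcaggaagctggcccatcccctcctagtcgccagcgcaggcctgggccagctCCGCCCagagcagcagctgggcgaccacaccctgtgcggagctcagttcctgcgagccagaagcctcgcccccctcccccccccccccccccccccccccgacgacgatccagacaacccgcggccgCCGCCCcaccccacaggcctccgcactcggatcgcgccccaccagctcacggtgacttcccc
Slc25a4 (chr8:46211013-46211312, minus strand): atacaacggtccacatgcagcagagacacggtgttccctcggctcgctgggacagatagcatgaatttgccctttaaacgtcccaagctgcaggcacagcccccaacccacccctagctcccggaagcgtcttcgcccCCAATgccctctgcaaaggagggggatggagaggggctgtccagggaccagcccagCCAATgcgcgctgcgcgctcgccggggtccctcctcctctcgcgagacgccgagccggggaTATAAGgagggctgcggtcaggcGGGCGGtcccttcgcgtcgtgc
Slc25a5 (chrX:36795347-36795646, plus strand): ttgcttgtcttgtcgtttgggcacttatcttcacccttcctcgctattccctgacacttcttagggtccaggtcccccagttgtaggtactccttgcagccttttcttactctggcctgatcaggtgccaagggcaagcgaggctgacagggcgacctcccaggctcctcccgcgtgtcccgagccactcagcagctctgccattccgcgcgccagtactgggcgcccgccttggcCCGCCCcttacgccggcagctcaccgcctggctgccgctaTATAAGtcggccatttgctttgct
Slc25a48 and Slc25a24 each held 2 GC boxes and none of the other motifs. Slc25a4 and Slc25a5 each held 1 GC box and 1 TATA match. The TATA matches began 5 and 26 bases after the RefSeq start used for the window. The GENCODE starts differ from these. That of Slc25a4, at 46211284, lies inside the window before the RefSeq start. That of Slc25a5, at 36795651, lies beyond the end of the window. The positions of the TATA matches thus depend on the start used. Of these 4 promoters, only that of Slc25a4 held CCAAT boxes. A GC box was found in 31 of 39 member promoters (79.5%), against 46.2% of 21263 promoters of protein-coding genes and 35.7% of all 32851 promoters. It was present in 7 of 7 promoters of members that rose and in 13 of 16 of members that fell. The other shares are likewise given against promoters of protein-coding genes and then all promoters. An E box was found in 6 member promoters (15.4%, against 7.84% and 7.15%). A CCAAT box was found in 17 (43.6%, against 38.2% and 37.4%) and a TATA match in 4 (10.3%, against 21.8% and 24.8%). An ERR element was found in 1 (2.56%, against 4.08% and 4.72%) and the NRF1 consensus in 0 (against 1.33% and 0.971%). Each member had 1 promoter, whereas the background was not limited to 1 promoter per gene. No matches overlap in the runs shown. These matches describe the letters in the window and are not measured sites.

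Depth ranged from 20749747 to 31875723 counts per library, so 1 CPM (counts scaled to library size with TMM factors) stands for 20.6 to 31.7 counts. Chuk had 28.9, 24.4 and 34.9 CPM in knock-out replicates 1 to 3 and 101, 106 and 95.8 CPM in wild-type replicates 1 to 3, a 3.42-fold fall (edgeR adjusted p = 8.6e-08). Knock-out replicate 2 stood apart from the other knock-out libraries, with a chi-square per degree of freedom of 39.7 and 40.2 against them, where that between the other two was 5.86. Without it, 8 members rose and 20 fell. Xist, the RNA of the inactive X, was at 858 to 1483 CPM in the wild type and 0.0316 to 0.0969 CPM in the knock-out, and the Y-linked Ddx3y was counted only there (34.5 to 58.1 CPM). Genotype and sex therefore cannot be told apart, which bears on the X-linked members Slc25a5, Slc25a14, Slc25a43 and Slc25a53. The median log2 fold change of 302 X-linked genes averaging 5 CPM or more was -0.09. Mitochondrially encoded transcripts took 2.15 to 3.46% of knock-out counts and 6.18 to 7.58% of wild-type counts. Of 8 epithelial markers, all detected in the wild type, 4 fell and 3 rose. Epcam fell 2.22-fold, Vil1 1.85-fold and Cdx2 9.39-fold, and Cdx1 had no knock-out count. The keratins Krt19, Krt8 and Krt18 rose 2.69-, 1.35- and 1.32-fold, and Cdh1 did not pass. Summed levels of 6 fibroblast markers were 0.452 to 0.884 CPM in the knock-out against 0 to 0.339 CPM in the wild type. Of these Col1a1 rose (adjusted p = 0.0021), while Col3a1, Dcn and Thy1 were at 0. The sum of 3 endothelial markers was at most 0.242 CPM, with Kdr at 0. For 4 smooth muscle markers the sums were 0.187 to 0.474 CPM in the knock-out against 9.14 to 18.2 CPM in the wild type, where nearly all came from Acta2. For 6 immune markers they were 23.1 to 23.8 against 3.28 to 6.98 CPM, mostly from Cd68 and Csf1r, which both rose. The pan-leukocyte gene Ptprc also rose, from 0.0248 ± 0.0429 to 0.434 ± 0.0994 CPM (SD, n = 3, edgeR adjusted p = 0.0079), and Cd3e was at 0. Itgam, not tested, went the other way without overlap, at 0.0867 ± 0.0632 CPM in the knock-out against 0.620 ± 0.410 CPM. Cd79a had 3 counts in all. The part of these differences in the member results was not tested.

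Among the adenine nucleotide translocases, Slc25a5 (Ant2, chromosome X, 36795651 to 36798807), the form of dividing cells, fell and Slc25a4 (Ant1, chromosome 8, 46206797 to 46211284), the form best known from heart and muscle, did not pass. Slc25a5 had 269, 312 and 253 CPM in knock-out replicates 1 to 3 and 404, 434 and 472 CPM in the wild type. All knock-out libraries lay below all wild-type libraries, a 1.57-fold fall (log2 fold change -0.65, SE 0.09, adjusted p = 7.2e-05). Slc25a4 had 205, 209 and 196 CPM against 196, 201 and 216 CPM, with overlapping groups (log2 fold change -0.01, SE 0.07, adjusted p = 0.93). Scaled by exon length, Slc25a5 took 65.3, 68.1 and 64.8% of the summed translocase level in knock-out and 74.6, 75.5 and 75.7% in wild-type libraries. Slc25a4 took 33.9 ± 1.80% in knock-out and 24.7 ± 0.571% in wild-type libraries (SD, n = 3 each). Slc25a31 (Ant4), the form of male germ cells, had 2 counts in all 6 libraries together. In bulk RNA, fewer cells of a type and less RNA per cell cannot be told apart. Processed copies of Slc25a5 share its sequence, and 1 of them, Slc25a5-ps, had 2 to 8 counts per library. The sources used here do not give how reads that map to several places were handled, so the Slc25a5 level is uncertain to that extent.

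Of the 4 tested phosphate and ATP-Mg carriers, 1 rose and 2 fell (75.0% called, against 57.4% of all genes). Slc25a3, the carrier of phosphate for ATP synthesis, had 668, 741 and 658 CPM in knock-out and 840, 865 and 889 CPM in wild-type libraries. That is a 1.25-fold fall (log2 fold change -0.33, SE 0.07, adjusted p = 0.0022) without overlap. Slc25a24 (chromosome 3, 109123149 to 109168457), a calcium-regulated carrier that exchanges ATP-Mg for phosphate, had 320, 254 and 312 CPM in the knock-out against 95.6, 105 and 89.7 CPM. It rose 3.05-fold (log2 fold change 1.61, SE 0.10, adjusted p = 4.7e-08). Its relative Slc25a25 (chromosome 2, 32414487 to 32451445) moved the other way, from 38.3, 43.5 and 42.8 CPM in the wild type to 28.3, 23.9 and 27.0 CPM, a 1.57-fold fall (adjusted p = 2.4e-04). The third relative, Slc25a23, had 21.2 ± 0.779 CPM against 24.6 ± 3.82 CPM with overlap (adjusted p = 0.16). Slc25a41 had 1 count in all.

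Uncoupling proteins let protons or small anions back across the membrane. Ucp2, the form common in gut and immune cells, had 520, 546 and 501 CPM in knock-out and 548, 569 and 625 CPM in wild-type libraries. These groups do not overlap but lie close together, and the difference did not pass (log2 fold change -0.15, SE 0.08, adjusted p = 0.10). It passed without knock-out replicate 2 (adjusted p = 0.0092) and with upper-quartile scaling (adjusted p = 0.038). Ucp1, which heats brown fat, had 3 counts in all, and Ucp3, the muscle form, had 18. The relatives Slc25a30 and Slc25a14 rose. Slc25a30 (chromosome 14, 75760117 to 75787037), first described in kidney, had 30.9, 23.3 and 31.6 CPM against 13.5, 12.3 and 10.4 CPM, a 2.38-fold rise (log2 fold change 1.25, SE 0.16, adjusted p = 2.3e-05). Slc25a14 (chromosome X, 48623413 to 48662294), a brain-enriched form also called Ucp5, had 11.6, 11.5 and 9.78 CPM against 7.27, 5.57 and 5.98 CPM, a 1.72-fold rise (adjusted p = 0.0019). The lowest knock-out library exceeded the highest wild-type library for each of these relatives. Slc25a27 had 3.85, 1.91 and 2.49 CPM against 5.23, 3.10 and 4.12 CPM, with overlap (adjusted p = 0.10).

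The 3 tested carriers of citrate and dicarboxylates all fell, each by less than 1.5-fold. Over all genes tested 27.0% fell, and this small group was not tested as a set. Slc25a1, which exports citrate for fatty acid synthesis, had 173, 208 and 169 CPM in knock-out and 236, 232 and 269 CPM in wild-type libraries, a 1.34-fold fall (adjusted p = 0.0023). Slc25a11, the oxoglutarate-malate exchanger of the malate-aspartate shuttle, fell 1.32-fold from 123 ± 6.95 to 93.4 ± 6.77 CPM (adjusted p = 0.0014). Slc25a10, the dicarboxylate carrier, fell 1.25-fold from 198 ± 19.2 to 159 ± 18.3 CPM (adjusted p = 0.015), with overlap between the groups. The call of Slc25a10 was lost without knock-out replicate 1 or 3 or wild-type replicate 2 or 3 (adjusted p up to 0.077). Slc25a21, the oxoadipate carrier, was at 0 in all libraries.

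Amino acid carriers fell or did not pass. Of 7 tested members, 5 were lower (71.4%, against 27.0% of all genes) and 0 higher (against 30.4%). This group was not tested as a set. Slc25a15 (chromosome 8, 22375551 to 22398597), which brings ornithine into mitochondria, had 35.6, 34.6 and 30.1 CPM against 64.3, 62.5 and 62.5 CPM, a 1.89-fold fall (log2 fold change -0.92, SE 0.09, adjusted p = 4.3e-06). Slc25a12 (chromosome 2, 71271063 to 71367749), the aspartate-glutamate carrier Aralar, had 34.4, 30.7 and 28.1 CPM against 53.5, 55.2 and 61.7 CPM, a 1.83-fold fall (adjusted p = 1.9e-05). Neither gene had a knock-out value within the wild-type range. The second aspartate-glutamate carrier, Slc25a13 (citrin), fell 1.39-fold from 67.4 ± 3.55 to 48.6 ± 3.36 CPM (adjusted p = 6.9e-04). Slc25a38, the glycine carrier used in haem synthesis, fell 1.30-fold to 19.4 ± 1.80 CPM (adjusted p = 0.017). That call was lost without knock-out replicate 1 or wild-type replicate 2 (adjusted p up to 0.083). Slc25a29 (chromosome 12, 108825873 to 108835883), a carrier of basic amino acids, was low throughout, at 1.33, 1.27 and 2.23 CPM against 2.81, 3.44 and 4.27 CPM. It fell 2.15-fold (log2 fold change -1.10, SE 0.32, adjusted p = 0.0090), and its adjusted p was 0.052 without wild-type replicate 3. The glutamate carrier Slc25a22 had 28.9 ± 1.51 CPM against 30.4 ± 1.23 CPM (adjusted p = 0.54). The branched-chain amino acid carrier Slc25a44 had 39.8 ± 2.58 against 39.1 ± 2.56 CPM (adjusted p = 0.86). The ornithine carrier Slc25a2 had 16 counts in all and the glutamate carrier Slc25a18 none.

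**Figure D2:**
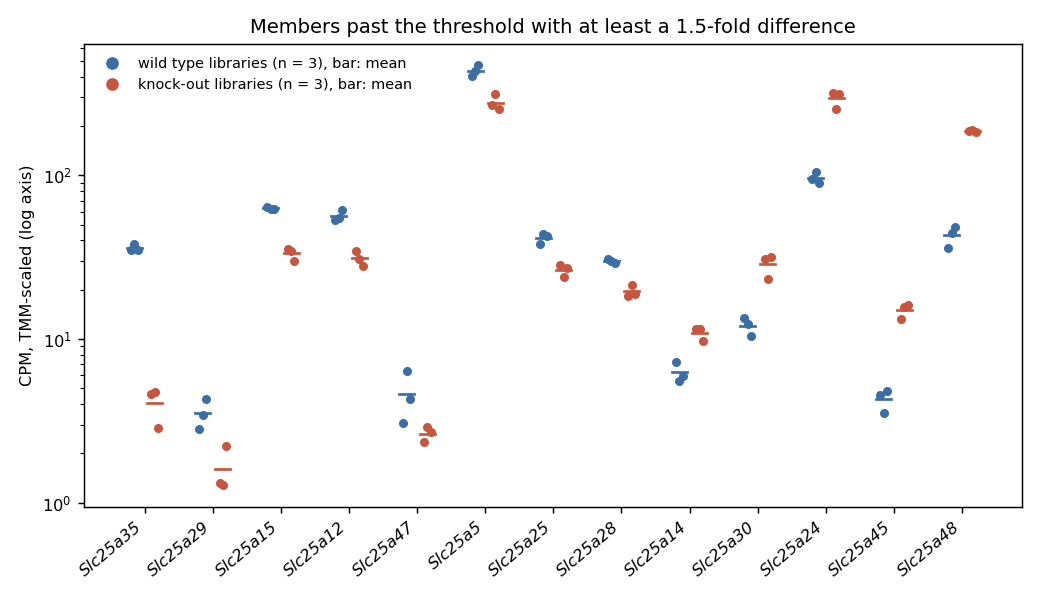
CPM (vertical log axis) in each library for the 13 members past the threshold with at least a 1.5-fold difference, with the mean of each group as a bar. The groups do not overlap for any of the 13. Slc25a35 lies at 34.8 to 38.2 CPM in the wild type and at 2.84 to 4.76 CPM in the knock-out, and Slc25a48 at 36.2 to 48.5 and 183 to 190 CPM.

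Among 9 carriers of cofactors and nucleotides, 3 fell, 1 rose and 5 did not pass (44.4% called, against 57.4% of all genes). Slc25a17, the carrier of the peroxisomal membrane for coenzyme A and adenine nucleotides, had 135, 125 and 130 CPM against 86.7, 94.8 and 91.4 CPM, a 1.43-fold rise (adjusted p = 1.0e-04). The pyrimidine nucleotide carrier Slc25a36 fell 1.39-fold to 72.0 ± 4.56 CPM (adjusted p = 6.7e-04). Slc25a16, which has been linked to coenzyme A, fell 1.32-fold to 27.2 ± 3.18 CPM (adjusted p = 0.0084). The folate and FAD carrier Slc25a32 fell 1.30-fold to 19.0 ± 0.958 CPM (adjusted p = 0.012), with an adjusted p of 0.058 without wild-type replicate 1. Among those that did not pass were the carriers of S-adenosylmethionine (Slc25a26), pyrimidine nucleotides (Slc25a33), coenzyme A (Slc25a42) and NAD (Slc25a51). The log2 fold changes of these 4 lay between 0.02 and 0.13, with adjusted p from 0.53 to 0.93. The acylcarnitine carrier Slc25a20, which feeds fatty acid oxidation, had 25.3 ± 1.81 CPM against 23.3 ± 1.89 CPM (adjusted p = 0.44).

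Of the iron and glutathione carriers, the mitoferrin Slc25a28 (chromosome 19, 43663801 to 43674881) had 18.4, 21.4 and 18.8 CPM against 30.6, 29.9 and 29.3 CPM, a 1.54-fold fall (adjusted p = 4.1e-04). The other mitoferrin, Slc25a37, had 86.6, 84.6 and 89.9 CPM against 92.2, 78.3 and 83.3 CPM, with the knock-out values inside the wild-type range (adjusted p = 0.72). The glutathione carrier Slc25a39 had 244, 273 and 241 CPM against 299, 289 and 338 CPM, a 1.22-fold fall (adjusted p = 0.010). Its near relative Slc25a40 rose 1.44-fold from 9.09 ± 1.18 to 13.1 ± 1.63 CPM (adjusted p = 0.016). Slc25a40 lies on chromosome 5, where the 685 genes averaging 5 CPM or more had a median log2 fold change of 0.40, against -0.03 for the remaining autosomes. The calls of Slc25a39 and Slc25a40 were each lost without knock-out replicate 3 or wild-type replicate 3, with an adjusted p up to 0.058 and 0.078.

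The largest differences were in members whose substrates are less firmly assigned. Slc25a48 (chromosome 13, 56438355 to 56474239), linked to the entry of choline into mitochondria, had 188, 190 and 183 CPM against 36.2, 44.4 and 48.5 CPM, a 4.35-fold rise (log2 fold change 2.12, SE 0.10, adjusted p = 4.7e-09). Slc25a45 (chromosome 19, 5877808 to 5885878), a relative of Slc25a48, had 13.2, 15.7 and 16.2 CPM against 4.52, 3.54 and 4.79 CPM, a 3.46-fold rise (log2 fold change 1.79, SE 0.19, adjusted p = 3.3e-06). The lowest knock-out library was more than 2-fold above the highest wild-type library for each. Slc25a47, another relative, described in liver, had 2.34, 2.88 and 2.71 CPM against 3.05, 6.40 and 4.31 CPM. It fell 1.68-fold at an adjusted p of 0.046, and the call was lost with limma voom, with the legacy edgeR fit and without knock-out replicate 1 or 3 or wild-type replicate 2 or 3 (adjusted p up to 0.18). Slc25a35 (chromosome 11, 68968131 to 68974365) had 4.61, 4.76 and 2.84 CPM against 34.9, 38.2 and 34.8 CPM, an 8.86-fold fall (log2 fold change -3.15, SE 0.18, adjusted p = 1.0e-08). Its exons overlap those of Rangrf on the opposite strand by 1151 bases. Rangrf had 0.126, 0.112 and 0 CPM in knock-out and 4.05, 4.51 and 5.91 CPM in wild-type libraries. The sources used here do not give the strand setting of the counting, so reads of the overlap cannot be assigned. Rangrf had 380 counts in all and Slc25a35 3128, and the part of the overlap in the Slc25a35 result was not tested. Exons of Slc25a10, Slc25a11, Slc25a18, Slc25a21, Slc25a25, Slc25a26, Slc25a46 and Ucp2 also overlap a counted gene on the opposite strand, with the same limit. The most abundant of these is Lrig1, which overlaps Slc25a26 by 144 bases and had 50050 counts in all against 2237 for Slc25a26, and which fell 5.72-fold (adjusted p = 1.9e-10). Slc25a46, an outer membrane protein of mitochondrial shape, rose 1.26-fold to 97.5 ± 7.30 CPM (adjusted p = 0.0049). Slc25a53, on chromosome X, had 3.94 ± 0.164 CPM against 2.82 ± 0.588 CPM (adjusted p = 0.096).

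The 10 untested members had at most 40 counts in all libraries together. Slc25a18, Slc25a21 and Slc25a54 had no count, which allows up to 3 counts or 0.0948 to 0.145 CPM per library, covering counting error only. The 40 counts belong to Slc25a43 on chromosome X, with 1, 6 and 3 in knock-out and 13, 8 and 9 in wild-type libraries. These groups do not overlap, and in the fit without a count filter the difference did not pass (adjusted p = 0.15). The others were Slc25a2, Slc25a31, Slc25a34, Slc25a41, Ucp1 and Ucp3.

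Per kilobase of exon, the members with the highest levels over all libraries were Slc25a5, Slc25a3, Slc25a39, Slc25a1 and Slc25a4. In the wild type their levels were 265, 156, 112, 113 and 87.0 CPM per kilobase, and in the knock-out 169, 124, 91.7, 84.8 and 86.5. With the longest transcript as the length, Ucp2 took the fourth place and Slc25a4 the sixth. Slc25a24 went from 28.2 to 86.1 CPM per kilobase, which placed it beside Slc25a4 in the knock-out, and Slc25a48 went from 12.8 to 55.4. As a whole, the members took 0.371 to 0.391% of all counts in knock-out and 0.401 to 0.435% in wild-type libraries, without overlap.

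Several related carriers had different calls, so the ratio within each library was compared for 6 pairs. The log2 ratio of Slc25a24 to Slc25a25 was 3.41 to 3.53 in knock-out and 1.07 to 1.32 in wild-type libraries, a 4.78-fold difference. The ratio of Slc25a4 to Slc25a5 was 1.56-fold higher in the knock-out, that of Slc25a37 to Slc25a28 1.58-fold and that of Slc25a40 to Slc25a39 1.76-fold. The log2 ratio of Slc25a12 to Slc25a13 was -0.81 to -0.55 in knock-out and -0.39 to -0.16 in wild-type libraries. None of these 5 ratios overlapped between genotypes, and each had p = 0.10 in a two-sided exact permutation test (0.12 adjusted over 6 pairs), the smallest p that 3 against 3 libraries allow. The ratio of Slc25a33 to Slc25a36 overlapped, at -1.88 to -1.49 against -2.49 to -1.84 (exact p = 0.30). The pairs were chosen with the members' values known.

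**Figure D3:**
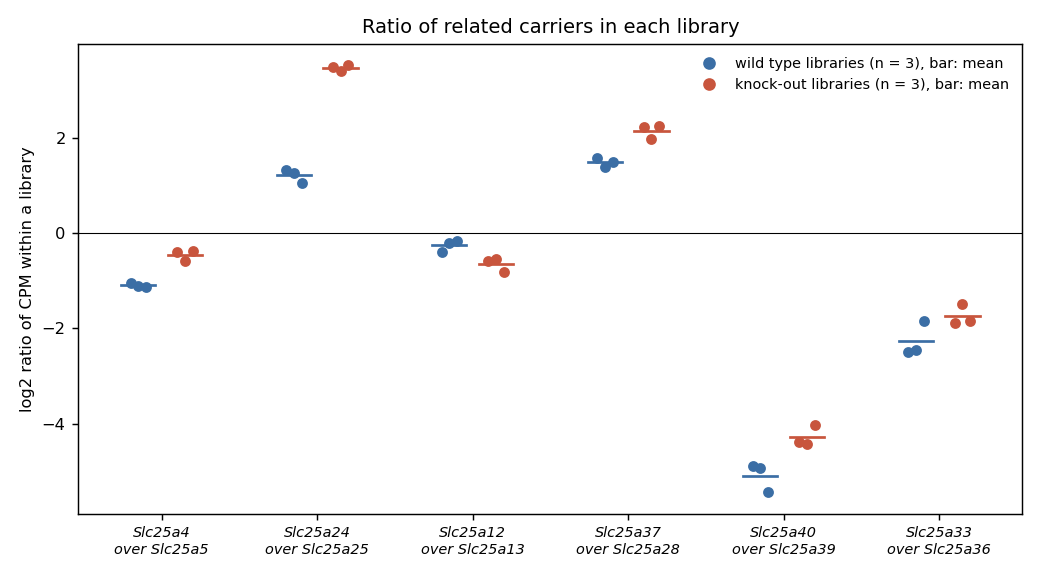
Log2 ratio of CPM (vertical axis) for 6 pairs of related carriers, with 1 point per library and the group mean as a bar. The groups separate for all pairs except Slc25a33 over Slc25a36, and the widest gap is that of Slc25a24 over Slc25a25, with means of 3.48 and 1.22.

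Genes that work with the carriers were read from 6 lists chosen by function. The background is the same, with 57.4% of all genes called, 27.0% lower and 30.4% higher. Of 16 genes of carrier import, none rose and 11 fell (68.75% called, median log2 fold change -0.46). Agk, a TIM22 subunit and lipid kinase, fell 3.56-fold to 1.43 ± 0.162 CPM (adjusted p = 4.9e-05) and the TOM subunit gene Tomm5 fell 1.67-fold to 32.8 ± 5.29 CPM (adjusted p = 6.3e-04). Of 15 ATP synthase subunit genes, none rose and 12 fell (80.0% called, median -0.58). Atp5g1, a subunit of the proton ring, fell 3.61-fold to 1.75 ± 0.297 CPM, and Atp5o, a subunit of the stalk, fell 2.07-fold to 123 ± 19.4 CPM. An earlier account of these data already gave nuclear genes of oxidative phosphorylation as lower, so these falls are no independent support.

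Of 11 tested genes of other mitochondrial metabolite transport, 8 fell and 2 rose (90.9% called). The pyruvate carrier subunits fell, Mpc1 4.24-fold to 0.721 ± 0.127 CPM (adjusted p = 5.7e-04) and Mpc2 2.08-fold to 25.4 ± 1.87 CPM (adjusted p = 1.6e-06). The sideroflexins Sfxn3 and Sfxn5 rose, Sfxn3 3.54-fold to 96.9 ± 2.54 CPM (adjusted p = 3.0e-09) and Sfxn5 1.81-fold to 8.46 ± 1.14 CPM (adjusted p = 0.0018). Of 9 enzymes of the malate-aspartate shuttle and of citrate export, 4 fell and 1 rose (55.6% called, near the 57.4% of all genes). By direction, 44.4% fell, against 27.0% of all genes, and 11.1% rose, against 30.4%. Cytosolic malate dehydrogenase Mdh1 fell 1.71-fold to 241 ± 15.7 CPM (adjusted p = 2.7e-06) and citrate synthase Cs fell 1.49-fold to 424 ± 12.0 CPM (adjusted p = 1.8e-05). The malic enzyme gene Me1 rose 5.09-fold to 264 ± 12.2 CPM (adjusted p = 3.4e-10). Acly, which uses exported citrate, and the fatty acid synthase gene Fasn did not pass, with adjusted p of 0.12 and 0.11. Of 5 tested genes of the carnitine shuttle, 2 rose and 0 fell, Cpt2 1.42-fold (adjusted p = 0.0013) and Crat 1.31-fold (adjusted p = 0.0054). Of 7 regulators of mitochondrial biogenesis, 4 fell and 0 rose (57.1% called, near the share of all genes). All calls were lower, where 27.0% of all genes fell and 30.4% rose. No list was tested as a set. The coactivator gene Ppargc1a fell 8.41-fold from 29.0 ± 1.56 to 3.41 ± 0.908 CPM (adjusted p = 1.7e-08), and Ppargc1b fell 5.48-fold from 17.3 ± 2.23 to 3.10 ± 0.807 CPM (adjusted p = 6.0e-07). Esrra, the receptor they act with, had 138 ± 3.76 against 132 ± 3.90 CPM (adjusted p = 0.50).

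**Figure D4:**
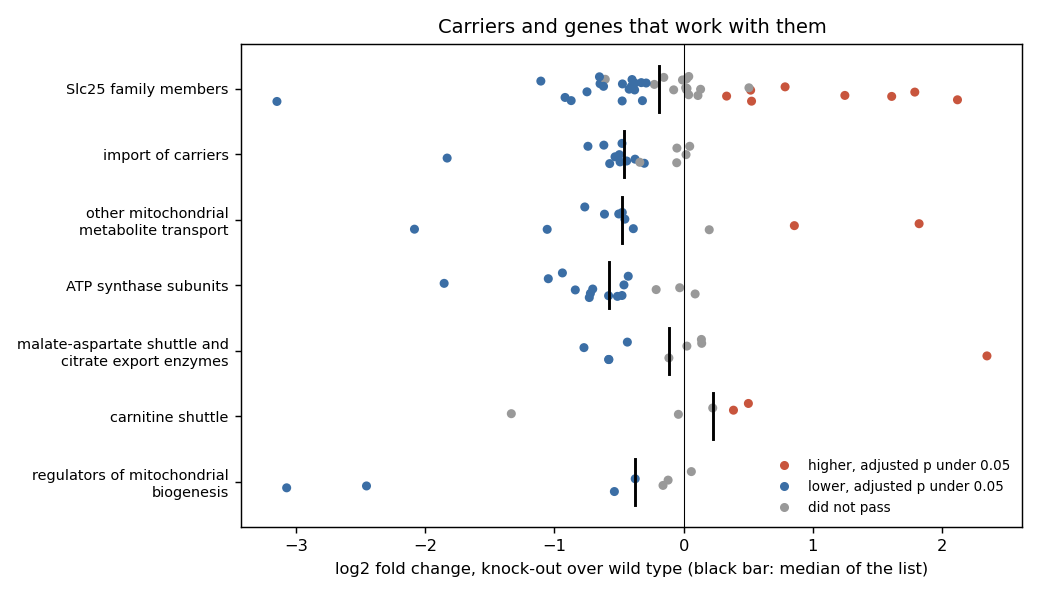
Log2 fold change (horizontal axis, knock-out over wild type) of each tested gene in the Slc25 family and in 6 lists of genes that work with it, with the median of each list as a black bar. The medians are -0.19 for the family, -0.46 for carrier import and -0.58 for ATP synthase subunits. The carnitine shuttle, with 5 tested genes, has a median of 0.23, the value of Cpt1a, which did not pass.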

How the data were processed

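Total RNA was extracted from 3 replicates per genotype, and stranded polyA-selected libraries were made, per the labels' protocols. Reads were aligned with STAR to GRCm38, per the submitters' processing notes. The sources used here do not give tool versions, the counting program, its strand setting or the annotation used. The deposited values are whole-number counts per gene, not normalized, from 20749747 to 31875723 per library. GENCODE M21 (GRCm38) named 49326 of 49585 identifiers.

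The values of 1 member are not reported here, though it stays in the counts over members. Members, lists and tests were chosen with earlier results of these data known. Counts were tested with edgeR 4.0.16 in R 4.3.3 (quasi-likelihood, TMM scaling, filterByExpr with minimum count 10 and total 15), which left 13759 genes, with Benjamini-Hochberg adjustment over all of them and a threshold of 0.05. CPM are given as mean ± SD over 3 libraries. The script was tested on simulated data. Counts per kilobase use the union of exons. Library pairs within a genotype had a chi-square per degree of freedom of 5.86 to 40.2, so none agreed within sampling noise. Values in every library are given for members past the threshold with at least a 1.5-fold difference and 1 CPM, the 5 highest per kilobase, and the translocase and uncoupling members. List genes named are the largest changes past the threshold, up to 2 each way, and others were named after their values were seen.

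Alternatives were other scalings, filters and tests (DESeq2 1.42.0, limma 3.58.1), a stricter threshold, a replicate term, fewer genes and leaving out each library. The legacy edgeR fit was chosen after seeing the data.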

Additional observations from a re-analysis of the deposited data

How the results depend on the processing

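Of the 26 members called, 19 kept call and direction under every alternative that tested them. The others were Slc25a10, Slc25a29, Slc25a32, Slc25a38, Slc25a39, Slc25a40 and Slc25a47, all with small differences or low counts. Leaving out each library in turn gave 7 to 8 members higher and 14 to 20 lower, and the stricter threshold of 0.01 gave 7 and 13. Without chromosomes X, Y, 5 and the mitochondrial genome, 6 rose and 17 fell, since Slc25a5, Slc25a14 and Slc25a40 are then not tested. Ucp2, Slc25a23 and Slc25a27, not called in the report, passed under some alternatives (lowest adjusted p 0.0092, 0.034 and 0.033).

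Several members with log2 fold changes near 0 changed sign without being called. With upper-quartile scaling Slc25a26 was at -0.0394, Slc25a33 at -0.029, Slc25a37 at -0.0171, Slc25a44 at -0.0333 and Slc25a51 at -0.0361, and without a filter Slc25a26 was at -0.0014. Leaving out each library in turn gave ranges of -0.116 to 0.0701 for Slc25a26, -0.0739 to 0.186 for Slc25a33, -0.0129 to 0.105 for Slc25a37, -0.055 to 0.0342 for Slc25a4, -0.0275 to 0.0545 for Slc25a44 and -0.0378 to 0.0961 for Slc25a51.

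By the longest transcript, Slc25a4 took 32.1% of the translocase level in knock-out and 23.2% in wild-type libraries, and Slc25a5 67.9% and 76.8%. Without knock-out replicate 2, 1 carnitine shuttle gene fell and 2 enzymes of the malate-aspartate and citrate list rose. Over the libraries left out these counts were 0 to 1 and 1 to 2. The replicate block (replicate number as a term) gave 8 members higher and 18 lower, as without it, and 3959 genes higher and 3473 lower against 4182 and 3713. Deviations of same-numbered libraries had correlations of 0.06, -0.06 and -0.11, so no deviation shared by number was seen. Whether the libraries were prepared in pairs cannot be told from these correlations. The fit without a filter tested 7 of the 10 members left out by it, and none passed (adjusted p from 0.15 to 0.96).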

Other observations

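The genes next to the members with the widest differences were read as well, and these were chosen after their values were seen. Slc25a35 shares its locus with Rangrf, a nucleotide exchange factor gene for Ran. Rangrf had 0.0796 ± 0.0693 CPM in knock-out and 4.82 ± 0.967 CPM in wild-type libraries (edgeR adjusted p = 1.4e-07). Of its 1269 exon bases, 1151 overlap exons of Slc25a35. With the strand setting not given, its counts are no separate reading. The purine synthesis gene Pfas, 11332 bases from Slc25a35, fell 1.46-fold (adjusted p = 2.3e-04). On chromosome 3, Fam102b rose 2.13-fold beside Slc25a24 (adjusted p = 1.1e-05), whereas Vav3 on the other side fell 31.3-fold from 25.7 ± 0.355 to 0.808 ± 0.171 CPM (adjusted p = 7.9e-10). Slc25a54, which lies 6462 bases from Slc25a24, had no count. Beside Slc25a45, Frmd8 rose 1.78-fold (adjusted p = 4.8e-06), while Dpf2 had 60.4 ± 3.08 against 64.6 ± 3.76 CPM (adjusted p = 0.38). The neighbours of Slc25a30 that were tested did not pass, with Cog3 at an adjusted p of 0.12, Tpt1 at 0.41 and Gtf2f2 at 0.34. Slc25a29 and Slc25a47, both lower in the knock-out, lie 163 bases apart on chromosome 12 with their starts facing away from each other, between Yy1 (adjusted p = 0.12) and Wars (adjusted p = 0.82).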
